A study of Homo sapiens with 12 samples.

Results

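Apolipoproteins are the protein components of the particles that carry fat and cholesterol in blood, and enterocytes and hepatocytes are the cells that make most of them. In both, apolipoprotein B is loaded with triglyceride by the microsomal triglyceride transfer protein, encoded by MTTP, and leaves as a chylomicron or a very-low-density lipoprotein. High-density lipoprotein arises differently, when the membrane transporter ABCA1 passes cholesterol and phospholipid to lipid-poor apolipoprotein A-I. The 10 genes described here are APOB and MTTP of that assembly step, APOC3 and APOC1 of the small exchangeable proteins that slow the breakdown and uptake of particles, APOA1, APOA2 and APOA4, the receptor ligand APOE, the phospholipid-binding plasma protein APOH and the exporter ABCA1. They were read from all 22 probe sets that the platform annotation gives to exactly 1 of these symbols, out of 54613 probe sets that are no controls. The 10 genes are among 19775 genes measured in this way.

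Expression was measured on 12 arrays, 1 per sample, of differentiated Caco-2 cells, an established colon carcinoma line that takes on enterocyte features when kept confluent. All cells were at passage 22, were used 21 days after confluence and were then incubated for 24 h in 20 mL of medium that held 1% ITS (insulin, transferrin, selenium). A serum content of 10% is also given for all 12 samples. The 4 groups of 3 arrays received surfactant-coated silver nanoparticles (AgPURE) at 25 µg/mL, the same nanoparticles at 2.5 µg/mL, silver ions as silver nitrate (AgNO3) at 0.5 µg/mL, or medium alone. No group received the surfactant without silver, and whether the 3 samples of a group came from different flasks is not labelled. Replicate numbers only name the samples in accession order. The p-values therefore rest on the spread among these arrays, which may be technical.

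The deposited values are log2 expression values, higher for more signal, and differences between groups are given as log2 fold changes ± the standard error (SE) from limma, a linear model fitted over all genes. A gene was called changed at a Benjamini-Hochberg adjusted p under 0.05 over all 19775 genes. Each gene was represented by its probe set with the highest mean, and levels are not compared between genes because probe sets differ in brightness. Of 14 intestinal epithelial markers 9 lay above the array median on all 12 arrays, and 3, the enterocyte genes ANPEP and SI and the galectin gene LGALS4, lay below it on all 12. At 25 µg/mL 4 of the 14 were lower and 1 higher, and their mean log2 level was 8.13 to 8.16, against 8.29 to 8.36 in medium. All 5 metal and heat-shock genes used as a check of the exposure, HSPA6, DNAJB1, HMOX1, MT1X and MT2A, were higher at 25 µg/mL. At 2.5 µg/mL and with ions 0 of the 5 were called, with median log2 fold changes of -0.02 and -0.06. By its calls and medians the check thus gave no sign of exposure in those 2 groups. The median of the 5 at 25 µg/mL was 3.37 against medium, 4.05 against 2.5 µg/mL and 3.95 against ions. Not all of the 5 therefore stayed at their medium level at 2.5 µg/mL and with ions. The 5 genes were chosen with earlier results of these data known, so the check is not independent. Of the markers of other cell types, 4 leukocyte genes had a mean level of 5.20 to 5.64 at 25 µg/mL, against 5.85 to 5.96 in medium, and 2 of them were lower. The 3 macrophage genes had 4.003 to 4.19, against 4.35 to 4.57 in medium (1 lower), and the 5 fibroblast genes had 5.34 on all 3 arrays, against 5.44 to 5.55 (1 higher and 1 lower). The 3 endothelial genes had 4.95 to 5.15 at 25 µg/mL, against 4.70 to 4.85 in medium (1 higher), and of the goblet and enteroendocrine genes 0 were called by limma. The part of these markers in the results was not tested. Correlations between 25 µg/mL arrays and those of any other group lay between 0.978 and 0.981 across probe sets, against 0.992 to 0.996 within groups. The poly-A control probe sets averaged 6.02 at 25 µg/mL and 5.41 in medium, and scaling on them moved the median of all genes at 25 µg/mL to -0.62, so directions are relative to the authors' normalization, under which it was -0.01.

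At 25 µg/mL 8 of the 10 genes fell and 0 rose by limma, where 19.3% of all genes fell and 14.1% rose. The size of the change ran over a wide range. APOC3 was 8.15-fold lower, ABCA1 3.14-fold, APOH 2.13-fold and APOB 1.98-fold, while APOA1, APOA4, APOE and APOC1 were between 1.29-fold and 1.64-fold lower. APOA2 and MTTP were not called. The median log2 fold change of the 10 genes was -0.63, beside -0.01 for all genes. In 9 of the 10 the 3 nanoparticle arrays all lay below the 3 medium arrays, the exception being MTTP, and the same was true of 25.9% of all genes. These arrays measure RNA of whole cultures, so fewer cells of a type and less RNA per cell cannot be told apart.

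**Figure D1:**
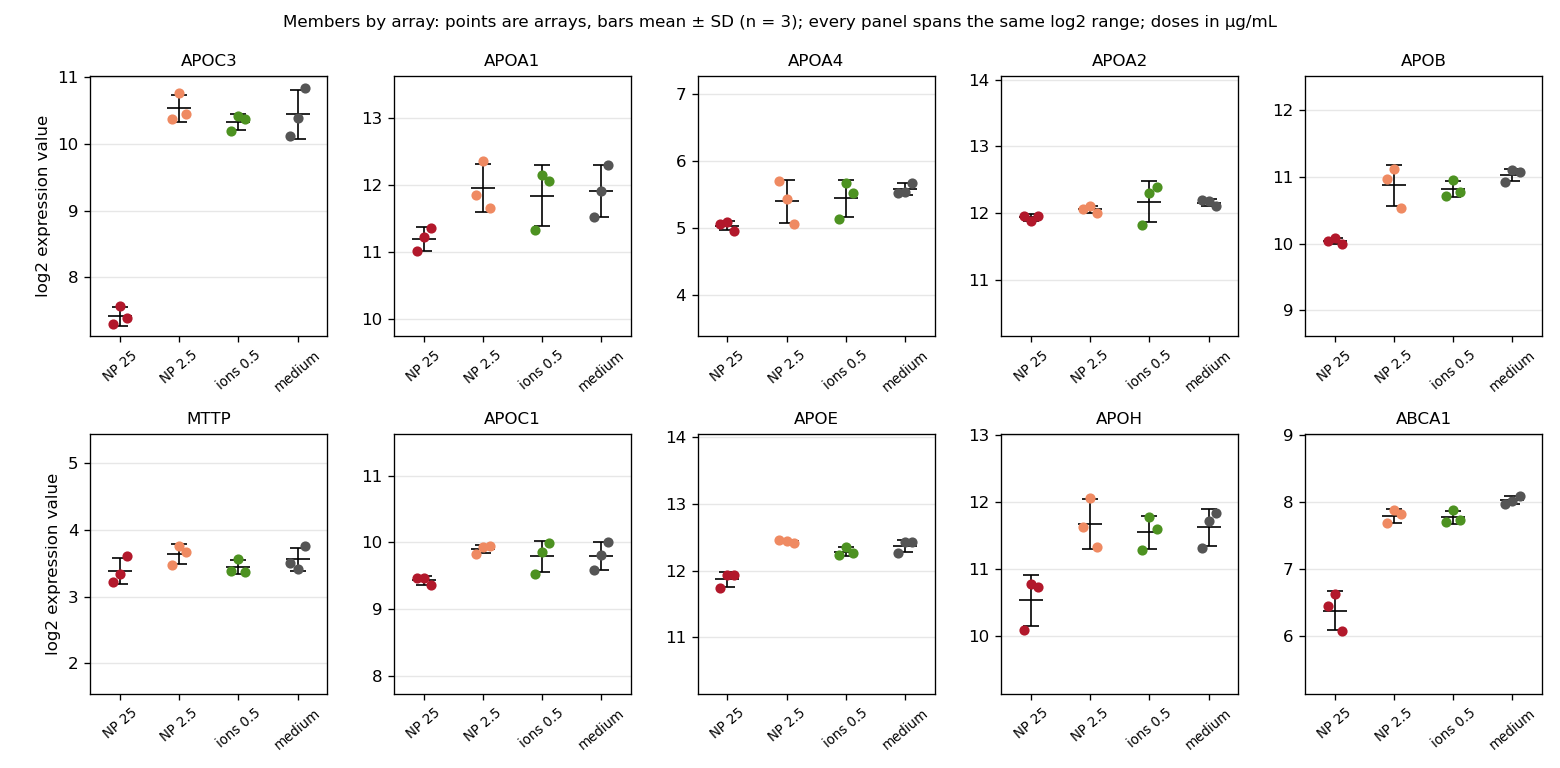
Log2 expression value (y axis) of the 10 genes on each array, by group (x axis, nanoparticles at 25 and 2.5 µg/mL, silver ions at 0.5 µg/mL, and medium). Points are arrays, the bars give mean ± SD of 3 arrays, and every panel spans an equal log2 range. The APOC3 arrays at 25 µg/mL lie between 7.30 and 7.57, far below the other 9, which lie between 10.11 and 10.83.

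Promoter sequences of members that responded by different amounts are shown first, for ABCA1 and APOH, which were more than 2-fold lower, APOA4, which was 1.46-fold lower, and MTTP, which was not called. They are RefSeq sequences on GRCh38.p14, from 250 bases before to 50 after the start, and the table used here gave 10 such windows for 7 of the 10 genes. Those of APOA1, APOB and APOC3 were not used here. Each is written 5′ to 3′ along the gene's own strand, and capitals mark the exact matches named below.
ABCA1 (chr9:104928106-104928405, minus strand): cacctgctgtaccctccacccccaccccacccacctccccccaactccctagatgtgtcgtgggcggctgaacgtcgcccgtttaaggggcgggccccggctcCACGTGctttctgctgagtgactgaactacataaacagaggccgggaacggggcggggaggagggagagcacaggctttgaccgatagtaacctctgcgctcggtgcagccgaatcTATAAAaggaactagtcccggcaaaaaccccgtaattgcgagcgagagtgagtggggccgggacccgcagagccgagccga
APOH (chr17:66229366-66229665, minus strand): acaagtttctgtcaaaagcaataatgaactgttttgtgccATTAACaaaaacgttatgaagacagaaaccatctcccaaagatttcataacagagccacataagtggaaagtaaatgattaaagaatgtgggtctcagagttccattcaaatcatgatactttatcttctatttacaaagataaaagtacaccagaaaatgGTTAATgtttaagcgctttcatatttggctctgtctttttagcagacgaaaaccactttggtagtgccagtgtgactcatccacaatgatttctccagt
APOA4 (chr11:116823255-116823554, minus strand): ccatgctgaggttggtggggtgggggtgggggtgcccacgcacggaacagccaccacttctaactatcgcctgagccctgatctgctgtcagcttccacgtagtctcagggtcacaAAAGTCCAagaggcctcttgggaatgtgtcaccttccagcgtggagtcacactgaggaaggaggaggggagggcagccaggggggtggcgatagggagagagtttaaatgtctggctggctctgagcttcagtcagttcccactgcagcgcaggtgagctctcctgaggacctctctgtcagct
MTTP (chr4:99574574-99574873, plus strand): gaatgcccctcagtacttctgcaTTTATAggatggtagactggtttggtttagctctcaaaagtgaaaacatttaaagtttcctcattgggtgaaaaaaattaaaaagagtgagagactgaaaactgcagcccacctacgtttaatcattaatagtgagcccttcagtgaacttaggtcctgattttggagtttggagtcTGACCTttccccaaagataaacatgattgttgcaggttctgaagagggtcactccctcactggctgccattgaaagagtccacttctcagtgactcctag

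Both strands of all windows were searched for letters associated with factors of liver and gut promoters. The ABCA1 window held the E-box CACGTG 147 bases before the start, as 7.26% of all 35116 windows did. It also held TATAAA, the letters of a core promoter box, 31 bases before the start (11.5% of windows). The metal response core TGCGCNC lay 52 bases before it, not capitalised above (20% of windows). The APOH window held GTTAAT, a half-site of the hepatocyte nuclear factor HNF1, once on each strand, 210 and 49 bases before the start, and 6.88% of windows held it. The APOA4 window held AAAGTCCA, a short form of the HNF4 core, 134 bases before the start, a match found in 1.14% of windows. The MTTP window printed above held the nuclear receptor half-site AGGTCA on the minus strand, 50 bases before the start (13.8% of windows), and TATAAA on that strand, 227 bases before it. None of the 10 windows held the longer HNF4 core CAAAGTCCA (0.384% of windows) or the other metal response form TGCACNC (12.1%). A match is a description of letters and not of binding.

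APOB encodes the large, non-exchangeable protein that forms the scaffold of chylomicrons and very-low-density particles, 1 molecule per particle. Its log2 values were 10.04, 10.09 and 10.00 at 25 µg/mL, against 10.92, 11.10 and 11.07 in medium. The nanoparticle arrays lay close together and all below the lowest medium array. The log2 fold change was -0.98 ± 0.13 (SE, limma adjusted p = 2.7e-05). A second APOB probe set, 223579_s_at, lay below the array median on all 12 arrays and had a log2 fold change of -0.07 ± 0.13 over all probe sets (adjusted p = 0.789). With the mean of both probe sets the change of APOB was -0.53.

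MTTP, the lipid transfer protein that loads apolipoprotein B in the endoplasmic reticulum, had a single probe set. Its log2 values were 3.22, 3.33 and 3.60 at 25 µg/mL, against 3.51, 3.42 and 3.75 in medium. The groups overlapped, and all 12 arrays lay below their own median, a level with no stated background. The log2 fold change was -0.17 ± 0.12, with a 95% interval of -0.43 to 0.08 (limma adjusted p = 0.316). The interval excludes a fall of the size seen for APOB but not a smaller one, and a dim probe set can understate a change.

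APOC3 encodes a small protein that inhibits lipoprotein lipase and the liver uptake of remnant particles, and it had the third largest fall of all 19775 genes. Its log2 values were 7.30, 7.57 and 7.39 at 25 µg/mL, against 10.11, 10.39 and 10.83 in medium. The highest nanoparticle array lay more than 2 log2 units below the lowest medium array. The log2 fold change was -3.03 ± 0.16 (SE, limma adjusted p = 7.7e-09). The dimmer probe set 231587_at, below the array median on 11 of 12 arrays, was also lower, with a log2 fold change of -0.74 ± 0.13 over all probe sets (adjusted p = 0.00059). The mean of both gave -1.88.

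APOC1, another small exchangeable protein and an inhibitor of particle uptake, gave values of 9.47, 9.47 and 9.35 at 25 µg/mL, against 9.59, 9.81 and 10.00 in medium. The log2 fold change was -0.37 ± 0.12 (limma adjusted p = 0.0283), and the groups did not overlap. Its other probe set, 213553_x_at, differed in sign, with 8.43, 8.51 and 8.46 at 25 µg/mL against 8.25, 8.18 and 8.47 in medium and a log2 fold change of 0.17 ± 0.10 (adjusted p = 0.236 over all probe sets). With the mean of both the change was -0.10 (adjusted p = 0.476). It no longer passed when medium replicate 2 (adjusted p = 0.0689) or 3 (0.14) was left out, or 25 µg/mL replicate 1 (0.0521), 2 (0.0534) or 3 (0.0927).

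APOA1 encodes the main structural protein of high-density lipoprotein and the acceptor of lipid from ABCA1. Its values were 11.01, 11.22 and 11.35 at 25 µg/mL, against 11.51, 11.91 and 12.29 in medium, a log2 fold change of -0.71 ± 0.23 (limma adjusted p = 0.0268). The medium arrays spread more widely than for any of the other 9 genes, and all lay above the nanoparticle arrays. A second bright probe set, 217073_x_at, gave -0.69 ± 0.21 over all probe sets (adjusted p = 0.0242). The third, 231694_at, went the other way. It had 5.55, 5.15 and 5.47 at 25 µg/mL, against 4.73, 4.55 and 4.68 in medium, and rose by 0.74 ± 0.12 (adjusted p = 0.00028). That probe set lay below the array median on 7 of 12 arrays, and the mean of all 3 gave -0.22 (adjusted p = 0.345). APOA1 also missed the threshold when medium replicate 2 (adjusted p = 0.0622) or 3 (0.133) was left out, or 25 µg/mL replicate 1 (0.0948) or 2 (0.0566).

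APOA4, which intestine secretes on chylomicrons after a fatty meal, had values of 5.06, 5.09 and 4.95 at 25 µg/mL, against 5.52, 5.54 and 5.68 in medium. The groups did not overlap, and the log2 fold change was -0.55 ± 0.15 (limma adjusted p = 0.0108). These values lie close to the array medians of 4.72 to 4.79, so the size of the fold depends on a background that is not stated. APOA2, the second protein of high-density lipoprotein, had 11.97, 11.88 and 11.96 at 25 µg/mL, against 12.20, 12.18 and 12.11 in medium. The groups were separate, as for 25.9% of all genes, and the log2 fold change of -0.22 ± 0.12 was not called (limma adjusted p = 0.179). It was called when ion replicate 1 was left out (adjusted p = 0.0296), whose APOA2 value of 11.82 stood apart from 12.30 and 12.39 on the other ion arrays. The second APOA2 probe set, 219465_at, fell by 0.45 ± 0.13 over all probe sets (adjusted p = 0.0197).

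APOE encodes the ligand through which remnant particles are taken up by receptors of the LDL receptor family. Its values were 11.74, 11.93 and 11.93 at 25 µg/mL, against 12.26, 12.42 and 12.42 in medium, a log2 fold change of -0.50 ± 0.08 (limma adjusted p = 0.000317). The groups did not overlap. The other APOE probe sets, 203382_s_at and 212884_x_at, had smaller changes of -0.26 ± 0.10 and -0.12 ± 0.09 over all probe sets, neither of them called (adjusted p = 0.0656 and 0.378). Their 25 µg/mL arrays all lay below the medium arrays. Such a separation was seen for 25.9% of all genes read from their brightest probe sets, and the share over all probe sets is not given here.

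APOH encodes beta-2 glycoprotein I, a plasma protein that binds anionic phospholipids and is found partly on lipoproteins. Its values were 10.08, 10.77 and 10.72 at 25 µg/mL, against 11.30, 11.72 and 11.83 in medium. The first nanoparticle array was the lowest, and all 3 lay below medium. The log2 fold change was -1.09 ± 0.21 (limma adjusted p = 0.000916). The dimmer probe set 231359_at had -0.44 ± 0.21 and was not called (adjusted p = 0.154).

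ABCA1, the exporter that starts high-density lipoprotein and a target of the liver X receptors, had values of 6.45, 6.62 and 6.06 at 25 µg/mL, against 7.97, 8.02 and 8.09 in medium. The medium arrays lay close together and all 3 nanoparticle arrays were more than 1 log2 unit lower. The log2 fold change was -1.65 ± 0.12 (limma adjusted p = 1.8e-07). A second bright probe set, 203505_at, gave -1.46 ± 0.09 over all probe sets (adjusted p = 2.5e-08). The probe sets 216066_at and 1570279_at were below the array median on all 12 arrays and had changes of -0.04 ± 0.11 and -0.03 ± 0.12.

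Over all 22 probe sets 12 were lower and 1 was higher at 25 µg/mL, where 13.4% and 12.5% of all probe sets were. The 9 that were not called include the 4 that lay below the array median on all 12 arrays, namely those of MTTP, 1 of APOB and 2 of ABCA1. The probe sets of APOA1 and of APOC1 disagreed in sign, those of the other genes with several did not.

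**Figure D2:**
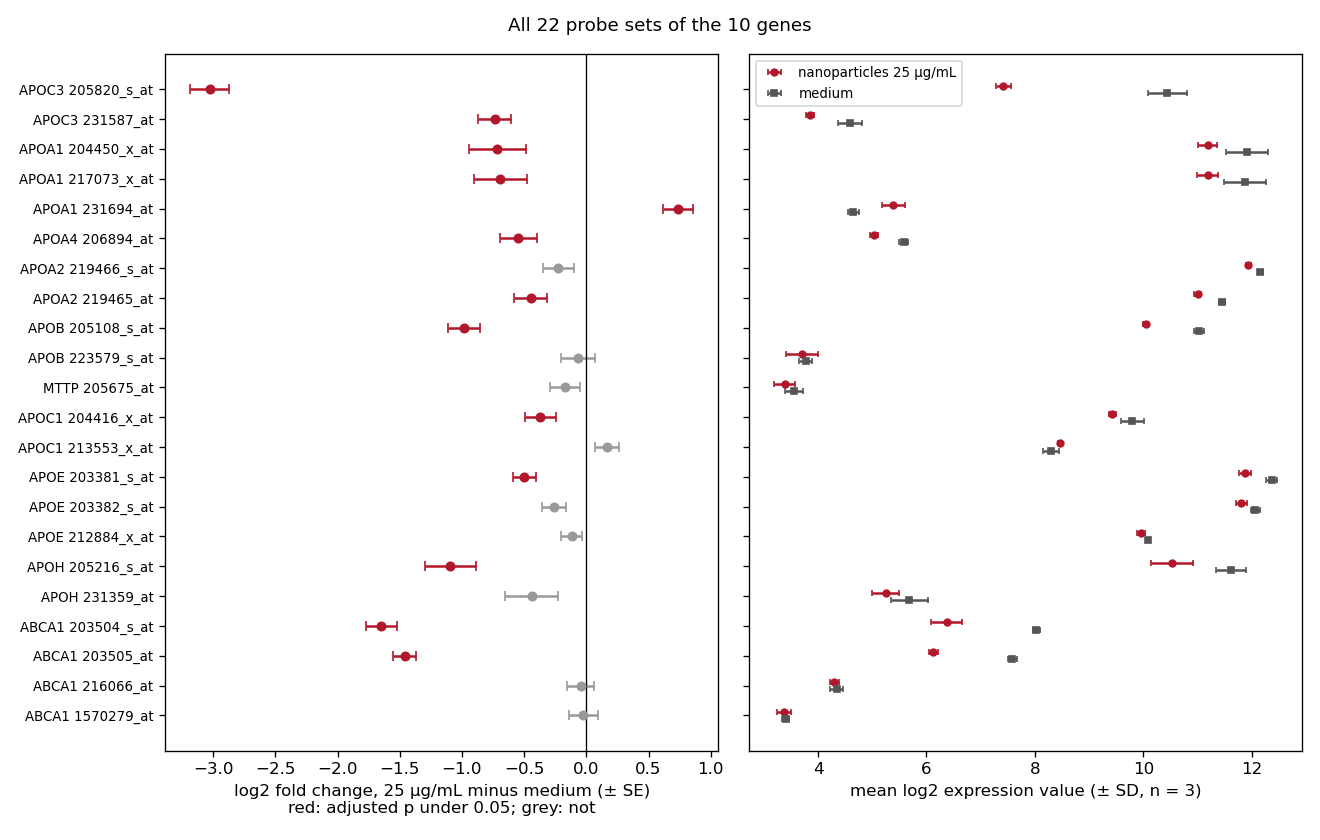
Left, log2 fold change ± SE at 25 µg/mL minus medium (x axis) for the 22 probe sets (rows), red where the adjusted p over all probe sets was under 0.05. Right, mean log2 value ± SD of 3 arrays at 25 µg/mL and in medium. The APOA1 probe set 231694_at, at 0.74, is the only red point right of 0.

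APOA4, APOC3 and APOA1 lie next to each other on chromosome 11, and APOE and APOC1 next to each other on chromosome 19, in the RefSeq gene order. Pairs of members were set against each other within each array, which takes out any scaling of the array, in 4 comparisons chosen after their values were seen. Of these, 3 pair genes of 1 cluster, and the other sets APOC3 against APOB on chromosome 2. APOC3 minus APOA1 was -3.71, -3.65 and -3.97 at 25 µg/mL, against -1.40, -1.52 and -1.46 in medium. APOC3 thus fell by 2.31 log2 units more than APOA1, and by 2.48 more than APOA4 and 2.04 more than APOB. In each the 3 arrays of a group were separate from the other 3 (p = 0.1 in a two-sided exact permutation test, which cannot go lower with 3 against 3, and 0.133 adjusted over the 4). Because the values were known when the pairs were chosen, this separation is a description and no independent test. The sizes hold for the brightest probe sets, and the second APOC3 probe set changed by -0.74 only. APOC1 minus APOE averaged -2.44 ± 0.15 (SD of 3 arrays) at 25 µg/mL, against -2.57 ± 0.13 for medium arrays, a difference of 0.13 (exact p = 0.4).

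Of 15 measured genes around these clusters 4 were higher and 3 lower at 25 µg/mL, with a median of 0.06. TAGLN, an actin-binding protein gene on the APOA1 side of the chromosome 11 cluster, rose by 1.71 ± 0.15. TOMM40, a mitochondrial import channel gene beside APOE, rose by 0.63 ± 0.09 and RELB, an NF-kB subunit gene, by 0.58 ± 0.12. CBLC, a ubiquitin ligase gene, fell by 0.82 ± 0.11, on 1 of its 2 probe sets.

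At 2.5 µg/mL 0 of the 10 genes were called by limma, 0 had an unadjusted p under 0.05 (4.55% of all genes did), and 0% of all genes were called. The log2 fold changes against medium ran from -0.23 to 0.10. APOC3 had values of 10.38, 10.76 and 10.45, against 10.11, 10.39 and 10.83 in medium, and a log2 fold change of 0.08 with a 95% interval of -0.25 to 0.42. The interval for APOB was -0.42 to 0.11, that for APOE -0.11 to 0.25 and that for APOA1 -0.45 to 0.54. ABCA1 had 7.68, 7.88 and 7.83, all below the medium arrays, and a log2 fold change of -0.23 ± 0.12 (unadjusted p = 0.0768, adjusted p = 0.998). The other bright ABCA1 probe set, 203505_at, had 7.30, 7.37 and 7.33 at 2.5 µg/mL, against 7.52, 7.66 and 7.58 in medium. Its log2 fold change over all probe sets was -0.25 ± 0.09, with a 95% interval of -0.45 to -0.06 (unadjusted p = 0.0151, adjusted p = 0.999), the 1 of 22 probe sets with an unadjusted p under 0.05, where 4.33% of all probe sets had one. APOA2 was the other gene whose arrays did not overlap with medium, and 4.51% of all genes lay below medium in this way.

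Silver ions at 0.5 µg/mL also called 0 of the 10 genes, with 0 at an unadjusted p under 0.05 (6.24% of all genes), and 0% of all genes were called. The log2 fold changes against medium ran from -0.26 to 0.01, with 9 of 10 below 0. Their median was -0.10, beside 0.004 for all genes, and the signs of several genes depended on single arrays. Without ion replicate 1 APOA1 was at 0.19, APOC1 at 0.12, APOH at 0.06 and APOA4 at 0.02. In that fit APOA2 stayed above 0, and APOB, APOC3, APOE, MTTP and ABCA1 stayed below it. Without medium replicate 3 APOC3 was at 0.07, APOA1, APOC1 and APOH were above 0 as well, and APOA2 was below it. ABCA1 again had the largest difference. Its values were 7.70, 7.89 and 7.73, all below the medium arrays, with a log2 fold change of -0.26 ± 0.12 and a 95% interval of -0.51 to 0.00343 (unadjusted p = 0.0527, adjusted p = 0.807). Such separation below medium was seen for 5.13% of all genes. APOC3 had 10.19, 10.41 and 10.37 and a log2 fold change of -0.12 ± 0.16, with an interval of -0.45 to 0.21. These comparisons and the one at 25 µg/mL share the medium arrays.

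**Figure D3:**
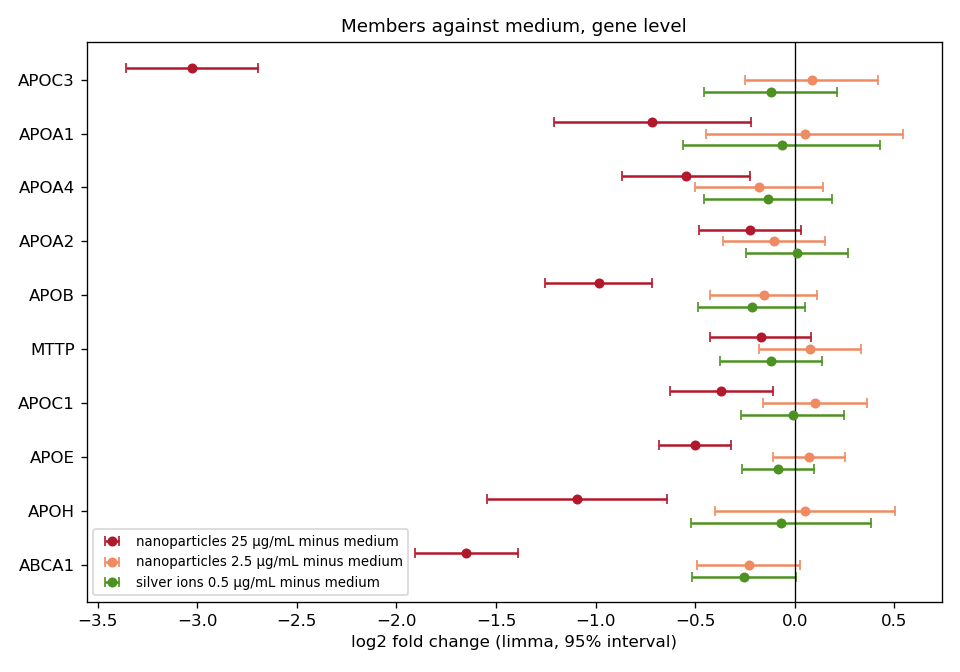
Log2 fold change against medium (x axis) with its 95% interval from limma for the 10 genes (rows), for nanoparticles at 25 µg/mL, nanoparticles at 2.5 µg/mL and silver ions at 0.5 µg/mL. The intervals at 25 µg/mL exclude 0 for all genes but APOA2 and MTTP, and those at 2.5 µg/mL and for ions include 0 for all 10.

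The 2 nanoparticle doses were compared directly. At 25 µg/mL 7 of 10 genes were lower than at 2.5 µg/mL, where 20.3% of all genes were, and 0 were higher, where 13.7% were. APOC3 differed by -3.11 ± 0.16, ABCA1 by -1.42 ± 0.12, APOH by -1.14 ± 0.21, APOB by -0.83 ± 0.13 and APOE by -0.57 ± 0.08 (limma adjusted p of 0.000619 or lower). APOA4 differed by -0.37 ± 0.15 and was not called (adjusted p = 0.0749), with 2.5 µg/mL values of 5.70, 5.44 and 5.06. Without 2.5 µg/mL replicate 3 it was called (-0.54, adjusted p = 0.0104), and without ion replicate 1 too (adjusted p = 0.0406). APOA1 missed the threshold without 2.5 µg/mL replicate 2 (adjusted p = 0.0995) or 25 µg/mL replicate 1 (0.0712), and MTTP passed it without 25 µg/mL replicate 3 (0.0405).

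Against silver ions, 25 µg/mL nanoparticles gave 8 of 10 genes lower and 0 higher, where 18.6% and 13.7% of all genes were. The doses differ, so the comparison does not separate the particle from the ionic form. APOC3 differed by -2.91 ± 0.16, ABCA1 by -1.39 ± 0.12, APOH by -1.02 ± 0.21, APOB by -0.77 ± 0.13 and APOE by -0.41 ± 0.08, each with a limma adjusted p of 0.00163 or lower. APOA1, APOA4 and APOC1 had adjusted p values of 0.0441, 0.0495 and 0.0342. Leaving out ion replicate 2 or 3 or any 1 of the 25 µg/mL arrays left 5 genes called, without these 3. APOA1 was also lost without 2.5 µg/mL replicate 1 (adjusted p = 0.0522) or medium replicate 2 (0.0538), and APOA4 without 2.5 µg/mL replicate 2 (0.0612) or any 1 of the medium arrays (0.0582 to 0.0595). APOA2 was called without ion replicate 1, with a log2 fold change of -0.41 (adjusted p = 0.00171) in place of -0.23. Between 2.5 µg/mL nanoparticles and ions 0 of 10 genes were called by limma, with 0 at an unadjusted p under 0.05 (8.77% of all genes) and 0% of all genes called. The largest difference was that of APOC3, 0.21 ± 0.16.

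Many pairs of the genes varied together among arrays of the same group, but not all. Deviations from the group mean over the 12 arrays correlated above 0 in 43 of the 45 pairs of members, with a median r of 0.42, a description in which all pairs share the arrays. The highest were APOA1 and APOH with r = 0.86, APOE and APOH with 0.83 and APOA1 and APOC3 with 0.82. The lowest were MTTP and ABCA1 with -0.11 and APOA4 and MTTP with -0.05, followed by APOA2 and ABCA1 with 0.04. An r to APOA1 as high as that of APOH was reached by 1.31% of genes, and the median over all genes was -0.03. Ion replicate 1 lay below its group mean for 10 of 10 members, ion replicate 2 and 2.5 µg/mL replicate 2 above it for all 10, and medium replicate 1 below it for 9. The median deviation of all genes on these arrays lay between -0.012 and 0.00095. How often other sets of genes reach such counts was not tested. Liver-type plasma protein genes, which Caco-2 cells also express, followed APOA1 in the same way. TTR, SERPINA1 and AFP had r = 0.89, ALB 0.79 and FGB 0.78, while TF had 0.05. The share of all genes with as high an r to APOA1 was 0.728% to 0.794% for TTR, SERPINA1 and AFP. It was 3.4% for ALB, 3.82% for FGB and 44.5% for TF. At 25 µg/mL 4 of the 8 hepatocyte-type markers were lower and 1 higher, and their mean log2 level was 7.14 to 7.41, against 7.79 to 8.25 in medium. Their part in the members' changes was not tested.

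**Figure D4:**
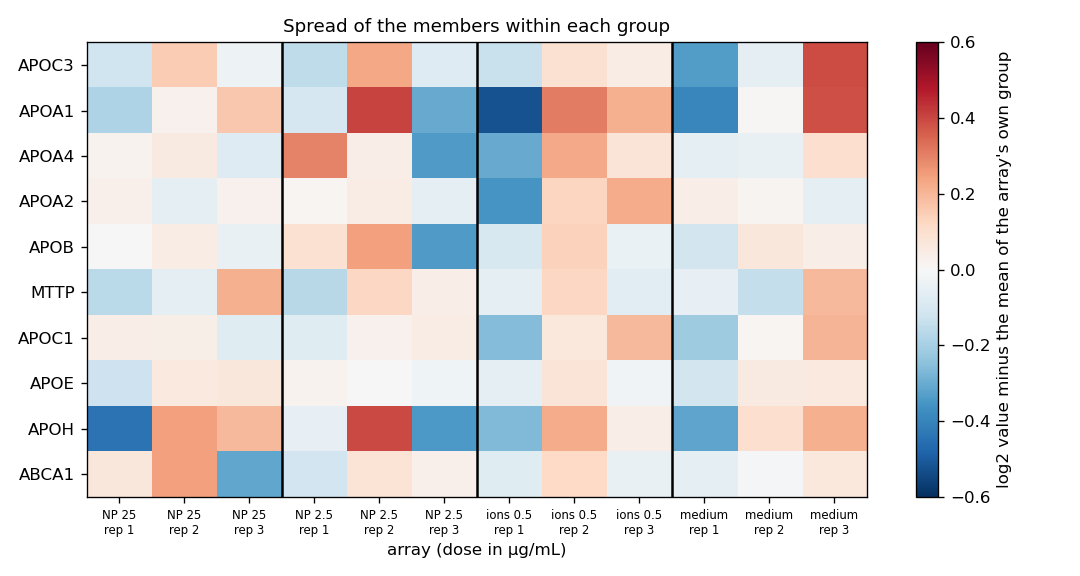
Log2 value minus the mean of the array's own group (colour scale) for the 10 genes (rows) on the 12 arrays (columns, 3 per group, lines between groups). The column of ion replicate 1 is below 0 for 10 of 10 genes, and most strongly for APOA1.

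Genes whose values most resembled those of a member were found by Pearson's r over the 12 arrays. These are descriptions, and the shared separation of the 25 µg/mL arrays enters every r. For APOC3 they were the glypican gene GPC5, the acute-phase gene ORM1 and the alcohol dehydrogenase gene ADH6, each with r of 0.996. Their log2 fold changes at 25 µg/mL were -2.46, -2.82 and -2.33. For APOB they were ATP5IF1, an inhibitor of the mitochondrial ATPase (r = 0.994), C1orf21 (0.987) and SUMF2 (0.986). For ABCA1 they were SMCO4 (0.989), DHTKD1 (0.988) and EXD3 (0.985). For APOH they were PIGX (0.985) and the paraoxonase genes PON3 (0.983) and PON2 (0.983), which changed by -0.75 and -0.40.

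Genes of the surrounding pathway were read from lists written with earlier results of these data known. Of 13 other apolipoprotein genes 3 were lower and 1 higher at 25 µg/mL, with a median of -0.12. APOD, a lipocalin that is carried on high-density lipoprotein, fell by 1.87 ± 0.19, APOL6 by 0.88 ± 0.11 and APOOL, of the mitochondrial inner membrane, by 0.65 ± 0.10. CLU, the secreted chaperone also called apolipoprotein J, rose by 0.99 ± 0.10. Of 23 genes of the assembly and secretory route 8 were lower and 3 higher (median -0.24). PLA2G12B, needed for triglyceride-rich particles in mice, fell by 1.53 ± 0.19, SEC24D, a coat protein of vesicles leaving the endoplasmic reticulum, by 0.79 ± 0.21, and MIA2, a receptor for large cargo there, by 0.49 ± 0.10, with 2 of its 4 probe sets of that sign. VMP1, an endoplasmic reticulum scramblase that also serves autophagy, rose by 2.04 ± 0.09, with a mean of 6.43 at 25 µg/mL and of 4.40 in medium, below the array median on 9 arrays.

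Of 14 genes of cholesterol efflux and esterification 8 were lower and 1 higher (median -0.33). SOAT2, which esterifies cholesterol for particles in intestine and liver, fell by 1.16 ± 0.20. NR1H3, the liver X receptor alpha that drives ABCA1, fell by 0.62 ± 0.08, MYLIP, a liver X receptor target, by 0.54 ± 0.09 and NPC1L1, the cholesterol importer of the brush border, by 0.52 ± 0.08. Of 17 genes of triglyceride supply 8 were lower and 1 higher (median -0.33). FABP1, a fatty acid carrier, fell by 1.59 ± 0.26, and DGAT2 and DGAT1, which make triglyceride, by 1.54 ± 0.09 and 1.41 ± 0.11. GPAT3, an acyltransferase of an earlier step, rose by 1.49 ± 0.09.

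Of 10 receptor and clearance genes 4 were lower and 2 higher (median -0.03). LRP1, a receptor for remnants, fell by 0.72 ± 0.09, SDC1, a heparan sulfate proteoglycan, by 0.61 ± 0.10 and SORL1 by 0.58 ± 0.12, while LRP8, a receptor of apolipoprotein E, rose by 0.38 ± 0.12. Of 9 genes of plasma lipases and their regulators 2 were lower and 1 higher (median -0.17). LIPA, the lysosomal acid lipase, fell by 0.74 ± 0.07, PNLIP, which was below the array median on all 12 arrays, by 0.39 ± 0.13, and LIPG, endothelial lipase, rose by 0.37 ± 0.09.

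Of 30 measured transcription regulators of apolipoprotein genes 9 were lower and 4 higher (median -0.12). EGR1, ATF3 and JUN, which respond early to stress, rose by 1.88 ± 0.12, 1.85 ± 0.15 and 1.53 ± 0.09. RORA, a nuclear receptor reported to act on the APOA1 and APOC3 promoters, fell by 1.63 ± 0.11. CEBPA and PPARA, named after their values were seen, fell by 0.89 ± 0.11 and 0.83 ± 0.13. The share of lower genes among all genes was 19.3% and of higher genes 14.1%, and no list is called particular from these counts. Scaled on the poly-A controls, LRP8, LIPG and RELB were at -0.24, -0.24 and -0.04, so their direction depends on the scaling, and TOMM40 was at 0.02. At 2.5 µg/mL and with ions 0 genes of any of these lists were called by limma.

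**Figure D5:**
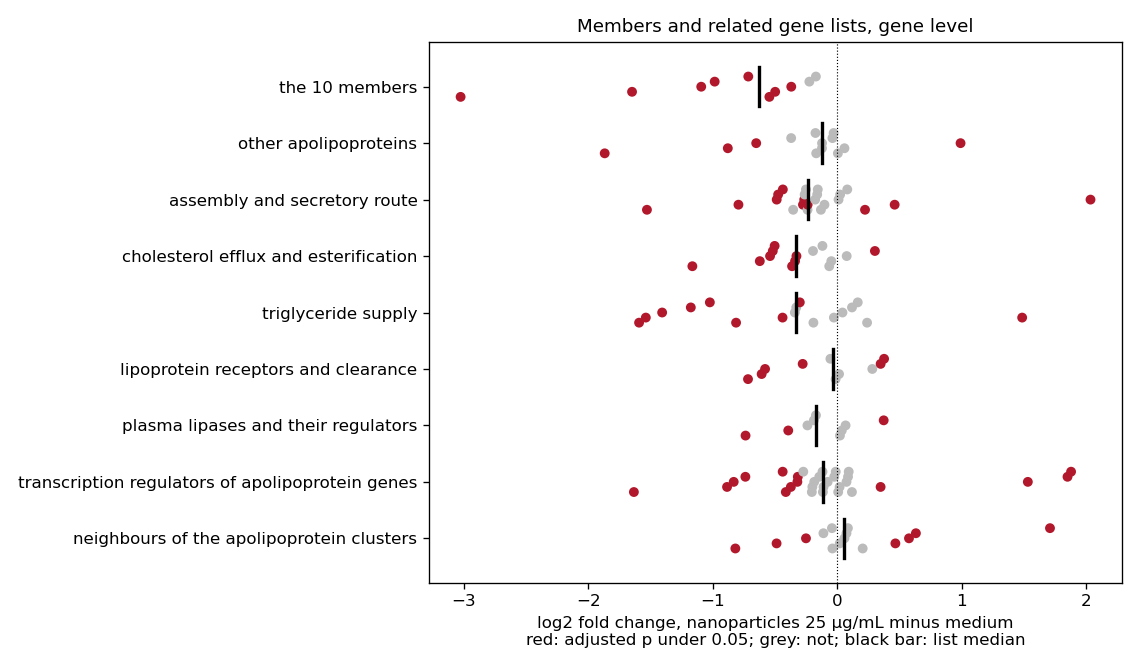
Log2 fold change at 25 µg/mL minus medium (x axis) of the 10 members and of the genes of 8 related lists (rows), red where the limma adjusted p over all genes was under 0.05 and grey where not, with the list median as a black bar. The members' median of -0.63 lies left of those of the lists, which run from -0.33 to 0.06.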

How the data were processed

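Total RNA was labelled as biotinylated cRNA from 250 ng per sample and hybridised to 3′ expression arrays, per the labels' protocols. The authors deposited log2 values per probe set in 1 table of 12 columns. The submitters' processing notes list the tools RMA and Partek, without version or options. The column means were equal at 5.57, the medians ran from 4.72 to 4.79, and there are no detection calls. RMA usually equalises arrays, so a change in total mRNA may not show. The number of arrays limits the precision.

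Of 54675 probe sets 62 were controls, 41091 had 1 symbol, 1801 had several and 11721 had none. Symbols were updated through the gene ID. The log2 values were fitted in limma 3.58.1 (R 4.3.3), with 1 model for the 4 groups, 8 residual and 6.25 prior degrees of freedom and 6 two-sided contrasts, and the same model was fitted to all 54613 probe sets. It was tested on simulated data. The members, the lists (202 entries, 182 measured) and the naming rule were chosen with earlier results of these data known. Named genes were the members and up to 4 called genes per list with the largest changes, and 3 genes most like each member. Each gene was read from its brightest 1-symbol probe set, adjusted p values are Benjamini-Hochberg, and alternatives changed the normalization, scaling, filter, probe set, variance model, threshold, arrays or groups. Within-array pairs and the within-group deviations were chosen after values were seen. Promoters come from RefSeq (GRCh38.p14). Figures were drawn with matplotlib 3.10.9.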

Additional observations from a re-analysis of the deposited data

Results flagged for a closer look

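Control probe sets, which enter none of the comparisons, differed between the 25 µg/mL and the medium arrays. For the 24 poly-A controls the mean log2 value was 6.21, 5.56 and 6.31 at 25 µg/mL, against 5.31, 5.54 and 5.39 in medium, a difference of 0.61. For the 18 hybridization controls it was 10.97, 10.89 and 11.08 at 25 µg/mL, against 10.57, 10.43 and 10.66 in medium, a difference of 0.43. In both sets the 3 arrays at 25 µg/mL lay above those in medium (p = 0.1 in a two-sided exact permutation test, which cannot go lower with 3 against 3).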

How the results depend on the processing

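No called log2 fold change of a member, read from its brightest probe set or the mean of its probe sets, turned its sign when the arrays were renormalized (quantile, median, or either control set), when dim genes were dropped, when probe sets were averaged or all entered the fit, when the variance model, weights, threshold or groups in the model were changed, or when any array was removed. APOC3, ABCA1, APOB, APOH and APOE stayed lower and called at 25 µg/mL against medium under all of them. The 8 lower members became 5 at an adjusted p under 0.01, 6 without moderation, and 6 to 9 when 1 array was left out. Against ions the 8 became 5 without moderation and at an adjusted p under 0.01, and 5 to 9 when 1 array was left out. Against 2.5 µg/mL the 7 became 6 without moderation and at an adjusted p under 0.01, and 6 to 8 when 1 array was left out. Averaging the probe sets of each gene gave 7 lower members against medium, 6 against ions and 5 against 2.5 µg/mL. With the mean of the probe sets APOC3 changed by -1.88, ABCA1 by -0.79, APOB by -0.53 and APOE by -0.29 at 25 µg/mL. Under poly-A scaling all 10 members were lower at 25 µg/mL, MTTP by -0.78 and APOA2 by -0.84, where 71.2% of genes were lower (14081 lower and 179 higher, against 3811 and 2796). Hybridization scaling gave 12835 lower and 508 higher, and testing every probe set 7324 and 6838. Poly-A scaling left 3 of the 4 higher regulator genes called, 1 of 3 in the assembly route, 1 of 4 neighbours, the 1 of triglyceride supply, and 0 in the other 4 lists. An intensity trend and hybridization scaling each called 8 features lower at 2.5 µg/mL, and with ions 1 or 2 were called lower under 5 alternatives, with 0 members among any of these. No paired analysis was possible because the labels carry no replicate numbers and those used here follow accession order. Dim signal limits the readings of MTTP and APOA4.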
